A study of Mus musculus with 2 samples.

Results

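The cells described here are 349 Cajal-Retzius (CR) cells from 1 knockout library, compared according to whether they carried RNA of the transcription factor genes Etv4 or Etv5. They were the barcodes with at least 2000 UMIs (unique molecular identifiers, each marking 1 captured RNA molecule), at most 8% mitochondrial UMIs, at least 5 UMIs of the CR cell gene Reln, and less than 1.8% of UMIs from nuclear genes of oxidative phosphorylation. In 138 of the 349 cells at least 1 UMI of Etv4 or Etv5 was found, and in 211 none was found. The same limits left 916 cells of the control library, which were used as the background, and 1265 cells in both libraries. Etv4 and Etv5 formed the groups, so their own values are given as a description and were left out of every comparison of the groups.

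CIC (Capicua) is a DNA-binding repressor that acts downstream of receptor tyrosine kinases. When RAS and ERK signalling is active, CIC is phosphorylated and its repression is lifted, and among the genes it represses are Etv4 and Etv5, ETS factors of the PEA3 family, and inhibitors that feed back on the pathway. CR cells are early-born neurons that secrete Reelin, express Trp73 and line the hippocampal fissure, where most are eliminated after birth.

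The control library came from ΔNp73-Cre; Cic flox/+; tdT mice (3 males and 1 female) and the knockout library from ΔNp73-Cre; Cic flox/flox; tdT littermates (2 males and 2 females), all at P14. In both genotypes Cre was expressed from the ΔNp73 locus in the CR cell lineage and switched on the red reporter tdTomato, so that control cells carried 1 deletable Cic allele and knockout cells 2. Hippocampal cells that were tdTomato-positive and excluded the dead-cell dye DAPI were sorted, pooled over 4 mice per genotype, and sequenced as 1 droplet-based 3′ library each. Cells could not be traced to mice, the genotype was that of the mouse and was not read in single cells, and no difference had a replicate check. Values are therefore given with 95% exact intervals that cover counting error only, and no test across cells was run.

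The knockout cells with Etv4 or Etv5 RNA were slightly deeper than those without. They held between 2971 and 14836 UMIs (median 7024), against 2769 to 15872 (median 6104) in cells without and 2117 to 31769 (median 6097) in control cells. Comparisons were therefore repeated after each cell was thinned to 3000 UMIs and the groups were formed again from the thinned counts. The mitochondrial share was 3.92% in cells with, 3.70% in cells without and 3.16% in control cells. Cells of both sexes were in each group: 67 cells with and 94 cells without had Xist but no Y-linked UMI, and 65 and 106 had a Y-linked UMI but no Xist.

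Over all genes the groups differed little. Expression is given as UMIs summed over the cells of a group per 1e6 UMIs outside mitochondrial and ribosomal protein genes (CPM), and a ratio compares the CPM of 2 groups. Of 7019 genes with at least 50 UMIs in the knockout cells, the median ratio of with over without was 0.991, 305 genes (4.35%) were higher by at least 1.5-fold and 376 (5.36%) were lower. Many of these had few UMIs: of the 2233 genes with at least 200 UMIs, 1.07% were past 1.5-fold higher (24 genes) and 0.806% lower (18 genes). These are counts of genes past a size and not of tested changes. The ratio had the same direction after thinning and regrouping in 4836 genes.

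Both groups had the markers of CR cells at like levels. Reln was at 8377 CPM in cells with, 8249 CPM in cells without and 8577 CPM in control cells, and Trp73 at 491, 490.0 and 459 CPM. The sum of 10 CR cell markers was 0.998 times as high in cells with as in cells without (0.976 to 1.02). Of the 10 markers, 1 was past 1.5-fold higher and 0 lower (4.35% and 5.36% of all genes). This was Nhlh2, a neuronal transcription factor, at 233 and 153 CPM (ratio 1.53, 1.26 to 1.85). Several markers that define other cells were at 0, and others were not. Those with at least 50 UMIs included Apoe, Slc1a2, Sox9 and S100b of the astrocyte genes and Cspg4 of the oligodendrocyte genes. P2ry12 (microglia), Pecam1 and Itm2a (endothelial cells), and Fibcd1 and Wfs1 (granule and pyramidal neurons) also had at least 50. Cells with fewer than 3 astrocyte UMIs were 114 of the cells with and 176 of the cells without. Of 11 astrocyte genes, Aqp4 and Gja1 had 0 UMIs in all knockout cells, and the 11 genes summed to 186 CPM in cells with and 218 CPM in cells without. Summed levels were 104 and 87.5 CPM for 8 oligodendrocyte genes (Olig2 and Sox10 at 0), 76.2 and 61.3 CPM for 7 microglial genes (C1qa, Csf1r and Tmem119 at 0) and 115 and 95.0 CPM for 5 endothelial genes (Cldn5 and Ly6c1 at 0). Of 7 markers of granule and pyramidal neurons, Neurod2, Neurod6 and Slc17a7 were at 0 and the sums were 96.1 and 80.8 CPM. Of 7 GABAergic markers, Lhx6, Slc32a1, Sst and Vip were at 0, and cells with held 1 UMI of the list and cells without 4.

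Etv4 and Etv5 RNA was sparse in single cells (UMIs of both genes per cell are plotted). Of the 138 cells, 59 held exactly 1 UMI, 31 held 2, and the highest cell held 8, so the groups differ by a single molecule at their border. Etv4 alone was found in 40 cells, Etv5 alone in 48 and both in 50. Etv4 had 166 UMIs and Etv5 165 UMIs in the 349 knockout cells, against 13 and 85 UMIs in the 916 control cells. The share of cells with either RNA was 39.5% (34.4 to 44.9) in the knockout and 8.52% (6.79 to 10.5) in the control. After thinning to 3000 UMIs the shares were 26.9% and 4.32%. Within the knockout the share was 31.2% in cells of 2000 to 5000 UMIs, 40.0% from 5000 to 8000 and 44.4% above 8000. It was 41.6% (33.9 to 49.6) in Xist cells and 38.0% (30.7 to 45.7) in Y-linked cells. In droplets of 20 to 100 UMIs, which mostly hold free RNA, the share was 0.363% in the knockout (median 44 UMIs) and 0.0310% in the control (median 89 UMIs). Per UMI, however, these droplets were not poor in the 2 RNAs: in the knockout they held 99.4 CPM, against 144 CPM in cells, and in the control 4.13 CPM, against 17.4 CPM in cells. The part of free RNA in the grouping was not tested.

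**Figure D1:**
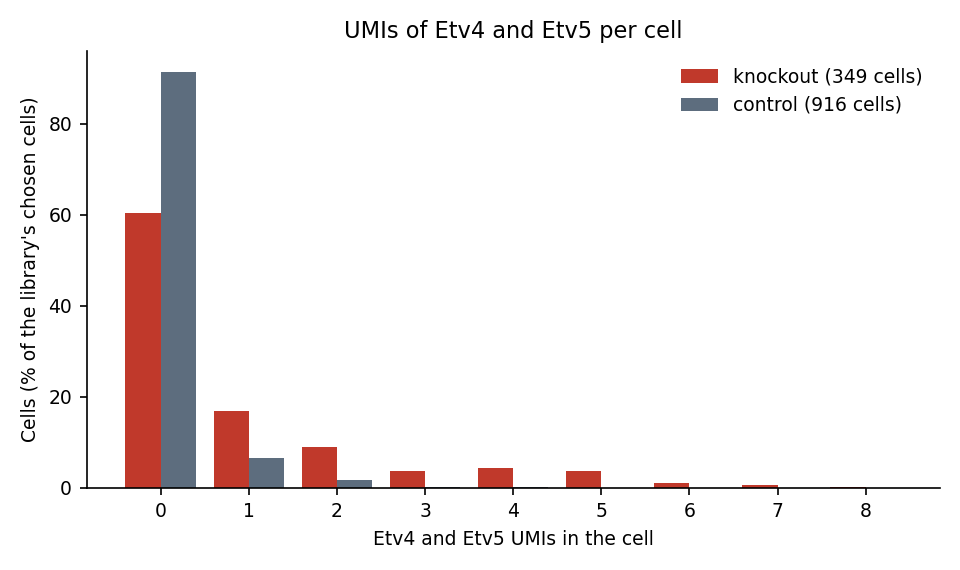
Share of chosen cells (y axis, percent of the library's cells) by the number of Etv4 and Etv5 UMIs in the cell (x axis) in the knockout (349 cells, red) and the control (916 cells, grey). In the knockout 60.5% of cells held 0 UMIs and cells reached up to 8 UMIs, whereas 91.5% of control cells held 0.

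Each of the 2 genes was also measured in groups formed by the other alone. Etv5 RNA was found in 55.6% (44.7 to 66.0) of the 90 cells with Etv4 and in 18.5% (14.0 to 23.8) of the 259 cells without it, at 124 and 50.2 CPM (ratio 2.47, 1.796 to 3.39). Etv4 RNA was found in 51.0% (40.7 to 61.3) of the 98 cells with Etv5 and in 15.9% (11.6 to 21.1) of the 251 without it, at 154 and 38.7 CPM (ratio 3.99, 2.89 to 5.55). After thinning, the shares were 34.0% and 14.5% for Etv5, and 28.3% and 11.5% for Etv4. Each RNA was thus found more often in cells with the other, and the intervals of the shares did not overlap at either depth.

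The groups differed in 4 genes outside the rule that had been found higher in the knockout library earlier in these data: the long non-coding RNAs 9630014M24Rik and Gm5820, the growth factor gene Fgf1, and C1ql1, which encodes a secreted C1q-like protein that binds at synapses. Since they were picked on these samples, their direction is not independent evidence, neither between the groups nor over control cells. The same holds for the longer list of 7 genes below. At least 1 UMI of the 4 was found in 81.9% (74.4 to 87.9) of cells with Etv4 or Etv5 RNA, in 24.2% (18.6 to 30.5) of cells without, and in 4.26% (3.05 to 5.78) of control cells. In sum they were at 504, 93.5 and 8.68 CPM. Droplets of 20 to 100 UMIs held a UMI of the 4 in 0.445% of cases in the knockout and 0.217% in the control. In the free RNA of the knockout library 9630014M24Rik was at 13.2 CPM, against 111 CPM over all 349 cells, and Fgf1 at 9.87 CPM against 43.6 CPM. C1ql1, in contrast, was at 95.1 CPM in droplets and 66.7 CPM in cells, and at 26.9 CPM in cells without. In the control library droplets were above cells for C1ql1 (24.3 and 4.61 CPM), Fgf1 (4.13 and 2.83 CPM) and 9630014M24Rik (1.84 and 0.531 CPM). Gm5820 was at 0 and 0.708 CPM. The part of free RNA in the values of either library was not tested. After thinning and regrouping, a UMI of the 4 was found in 68.8% of 93 cells with and 22.9% of 253 cells without. The longer list of 7 genes higher in the knockout, which adds Arhgap26, Vgf and Spry4, had 6 genes of at least 50 UMIs, all 6 past 1.5-fold higher in cells with (4.35% of all genes). Its sum was 3.72 times (3.24 to 4.29) as high in cells with as in cells without, and 2.64 times (2.26 to 3.07) as high in cells without as in control cells.

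9630014M24Rik had 213 UMIs in 94 of the 138 cells with (222 CPM), 42 UMIs in 27 of the 211 cells without (31.4 CPM) and 3 UMIs in 2 of the 916 control cells (0.531 CPM). The ratio of with over without was 7.08 (5.07 to 10.1), and it did not rest on single cells, since UMIs were found in 68.1% of cells with and 12.8% of cells without. C1ql1 had 117, 36 and 26 UMIs, found in 41.3%, 14.2% and 2.51% of cells, at 122, 26.9 and 4.61 CPM (ratio of with over without 4.54, 3.10 to 6.79). Gm5820 had 77, 23 and 4 UMIs, found in 38.4%, 6.64% and 0.437% of cells, at 80.4, 17.2 and 0.708 CPM (ratio 4.67, 2.90 to 7.80). Fgf1 had 76, 24 and 16 UMIs, found in 38.4%, 8.53% and 1.20% of cells, at 79.4, 17.95 and 2.83 CPM (ratio 4.42, 2.76 to 7.32). For each of the 4 the order was the same, highest in knockout cells with, lower in knockout cells without and lowest in control cells, and the intervals of the shares did not overlap between neighbours in that order. After thinning and regrouping the ratios were 4.02 for 9630014M24Rik, 2.72 for C1ql1, 3.27 for Gm5820 and 2.96 for Fgf1. In the same order they were 2.36, 2.95, 3.03 and 2.27 after thinning to 2000 UMIs, and 3.66, 2.35, 2.16 and 2.08 with the groups formed from Etv5 alone, so that their size depended on depth and on the gene that formed the groups. Within Xist cells they were 7.95, 3.23, 3.49 and 5.09, and within Y-linked cells 6.06, 5.33, 6.29 and 4.12, in the same order of genes.

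The sum of the 4 genes went with the number of Etv4 and Etv5 UMIs and differed by which of the factors was present. These subgroups were chosen after values had been seen. Cells just inside the rule, with exactly 1 UMI, had RNA of the 4 genes in 66.1% (52.6 to 77.9) of cases, at 373 CPM, against 24.2% and 93.5 CPM just outside it. Cells with 2 or more UMIs had it in 93.7% (85.8 to 97.9), at 590.0 CPM, which was 1.58 times (1.30 to 1.94) the level at 1 UMI. The share was 58.3% (43.2 to 72.4) of the 48 cells with Etv5 alone, 90.0% (76.3 to 97.2) of the 40 cells with Etv4 alone and 98.0% (89.4 to 99.9) of the 50 cells with both. The summed levels were 284, 558 and 623 CPM. Cells with Etv5 alone had a median of 6168 UMIs, those with Etv4 alone 7388 UMIs and those with both 7732 UMIs. Median depth also rose with the number of Etv4 and Etv5 UMIs, from 6104 at 0 to 6429 at 1 and 7346 at 2 or more. The shares were not thinned, and the part of depth in these differences was not tested. Between these groups the genes differed unequally: over cells without either factor, the ratio in cells with Etv5 alone was 5.26 (3.38 to 8.19) for 9630014M24Rik, and the intervals of the other 3 held 1, at 2.20 (0.973 to 4.66) for Fgf1, 2.09 (0.887 to 4.56) for Gm5820 and 1.60 (0.758 to 3.15) for C1ql1. In cells with Etv4 alone the ratios were 6.57 (4.36 to 9.99) for 9630014M24Rik, 5.75 (3.25 to 10.3) for Fgf1, 6 (3.37 to 10.8) for Gm5820 and 5.37 (3.36 to 8.62) for C1ql1. Control cells also held Etv5 RNA more often (7.53%, 5.91 to 9.44) than Etv4 RNA (1.20%, 0.601 to 2.14). Its part in the contrast of Etv5 alone and Etv4 alone was not tested.

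**Figure D2:**
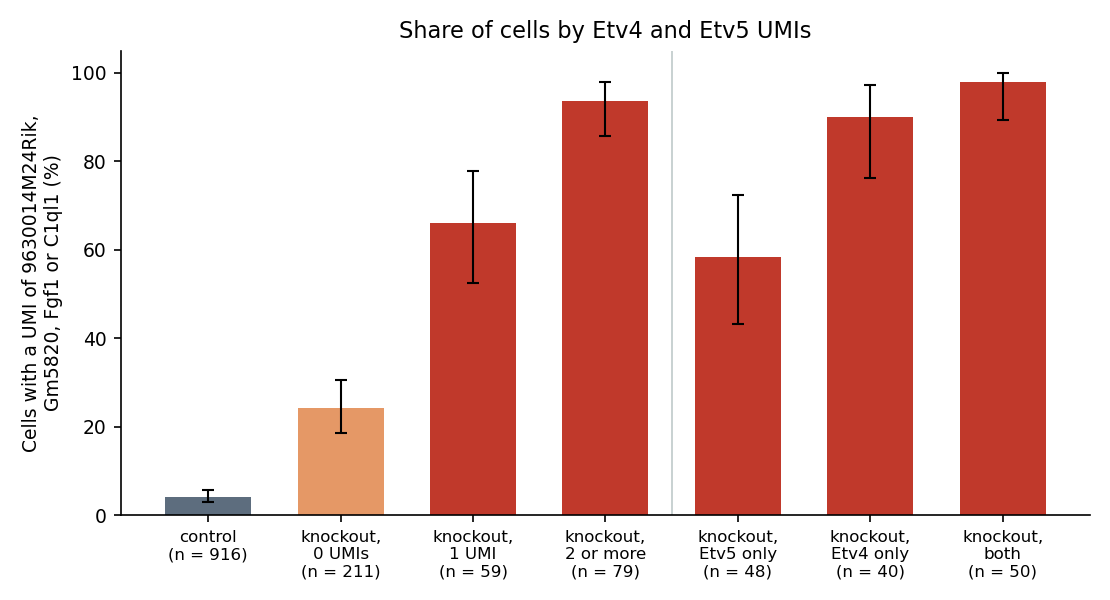
Share of cells with at least 1 UMI of 9630014M24Rik, Gm5820, Fgf1 or C1ql1 (y axis, percent) in control cells and in knockout cells grouped by Etv4 and Etv5 UMIs (x axis, number of cells in brackets), with 95% exact binomial intervals. The share was 4.26% in control cells, 24.2% at 0 UMIs, 66.1% at 1 UMI and 93.7% at 2 or more, and to the right of the line 58.3% with Etv5 alone, 90.0% with Etv4 alone and 98.0% with both.

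In the 4 genes, knockout cells without Etv4 or Etv5 RNA were above control cells. The genes had been picked as higher in this knockout library, so this direction was set in part by the choice. Of the 211, 51 held RNA of at least 1 of the 4 genes and 160 held none. The 51 cells were at 379 CPM for the 4 genes, as high as cells with exactly 1 Etv4 or Etv5 UMI, which follows in part from how they were chosen, so genes outside the 4 were examined. Shc3, an adaptor of receptor tyrosine kinases in neurons, was at 30.3 CPM in the 51 cells, 3.97 CPM in the 160 and 0.886 CPM in control cells. Vgf, a precursor of neuropeptides, was at 88.0, 27.8 and 17.5 CPM, and Arhgap26, a GTPase-activating protein, at 140, 40.7 and 52.1 CPM. Nrcam, a neuronal cell adhesion molecule, was at 60.7, 5.96 and 6.73 CPM, and Lrp1b, an endocytic receptor of the LDL receptor family, at 246, 746 and 695 CPM. For Nrcam, Lrp1b and Arhgap26 the interval of the 160 cells over control held 1, at ratios of 0.885 (0.306 to 2.11), 1.07 (0.991 to 1.16) and 0.782 (0.550 to 1.09). Shc3 was at 4.49 (0.890 to 20.8), from 4 and 5 UMIs. The interval did not hold 1 for Vgf (1.59, 1.003 to 2.43) or for the receptor subunit gene Gabrb1 (2.03, 1.24 to 3.21). Nor did it for Egr1 (0.568, 0.409 to 0.773), an immediate early gene. Vgf and Arhgap26 stood on an earlier list of genes higher in this knockout library, and Egr1 on one of genes lower. Their direction is therefore not independent, and Arhgap26 also lies close to Fgf1 in the genome. Shc3, Nrcam, Gabrb1 and Lrp1b were among the highest or lowest genes when these same knockout cells were compared by Etv4 or Etv5 RNA. They are not an independent check either. Of other genes looked at, which were chosen after values had been seen, the interval did not hold 1 for Alk (2.49, 1.47 to 4.10), a receptor tyrosine kinase gene. The same was true of Sfrp1 (1.43, 1.03 to 1.95), a secreted inhibitor of WNT signalling. The intervals of these genes were not corrected for the picking of genes and do not cover the clustering of UMIs in few cells. The 160 cells were chosen for having no UMI of Etv4, Etv5 or the 4 genes, whereas the control cells were not chosen in this way. Whether the 160 cells as a group differ from control cells was not tested.

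Of the 78 control cells with Etv4 or Etv5 RNA, 1 (1.28%, 0.0324 to 6.94) held RNA of the 4 genes, against 38 of the 838 control cells without (4.53%, 3.23 to 6.17). Their summed levels were 1.86 and 9.40 CPM (ratio 0.198, 0.00491 to 1.16). The control cells with Etv RNA were deeper (median 6875 UMIs) than those without (median 6018 UMIs). The 4 genes had been picked as higher in the knockout library, so few of their UMIs were in control cells. The control ratio rested on 1 and 48 UMIs, and 26 of the 48 were of C1ql1. In knockout cells the summed ratio of with over without was 5.39 (4.42 to 6.62). The intervals of the 2 libraries, which cover counting error only, did not overlap. With 1 library per genotype a difference between the libraries was not tested. Arhgap26 and Vgf of the longer list did not share this contrast of the libraries, and Spry4 had 0 UMIs in control cells. Within control cells Arhgap26 was at 83.7 and 48.7 CPM (ratio 1.72, 1.22 to 2.37), higher in cells with as in the knockout. Vgf was at 26.0 and 16.6 CPM (ratio 1.56, 0.821 to 2.77). Lrp1b and Trpm3, which are not on that list, were lower in knockout cells with than without (ratios 0.419, 0.363 to 0.484, and 0.361, 0.282 to 0.459). In control cells Lrp1b was at 770 and 687 CPM (ratio 1.12, 1.01 to 1.24) and Trpm3 at 277 and 273 CPM (ratio 1.01, 0.851 to 1.20). For both genes the intervals of the libraries did not overlap. Most of the control UMIs were of Etv5 (85, against 13 of Etv4).

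Of the 4 genes, 3 are neighbours in the genome. On chromosome 18 of GRCm38, Spry4 (38586247 to 38601415, minus strand), which encodes an inhibitor of RAS and ERK signalling, lies 118 bases from the start of 9630014M24Rik (ENSMUSG00000118257, 38601534 to 38789045, plus strand). Fgf1 (38838673 to 38929472, minus strand) and Gm5820 (ENSMUSG00000117994, 38892458 to 38971276, plus strand) overlap by 37.0 kb on opposite strands. The Arhgap26 entry that was counted follows (38993145 to 39376284, plus strand). Another Arhgap26 entry of the annotation (38676718 to 39110534, plus strand) was not in the count table. It spans Gm5820 and overlaps 9630014M24Rik on the same strand. Whether UMIs of these RNAs belong to that entry was not tested. C1ql1 is on chromosome 11 (102939264 to 102946688), as is Etv4 (101769742 to 101785371), and Etv5 is on chromosome 16 (22381309 to 22439719). Whether strand was used in counting is not given in the sources used here, so UMIs of Fgf1 and Gm5820, and those of Arhgap26 and its antisense genes, cannot be told apart with certainty.

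In that stretch each gene with a UMI in the knockout cells was at a higher level in cells with Etv4 or Etv5 RNA. This was set in part by the choice of genes. Spry4, 9630014M24Rik, Fgf1, Gm5820 and Arhgap26 stood on the earlier list of genes higher in this knockout library, so their direction is not independent. Gm15336 and Gm15337 lie antisense to Arhgap26 and had few UMIs. Of the 8 nearest genes of at least 50 UMIs outside the stretch, 4 on either side, 1 was past 1.5-fold higher and 1 lower (4.35% and 5.36% of all genes). No minimum of UMIs was set inside the stretch. The annotation lists 15 genes in the stretch, of which 8 were in the count table and 7 had a UMI in knockout cells. Spry4 had 14 UMIs in cells with, 7 in cells without and 0 in control cells (ratio of with over without 2.79, 1.05 to 8.17). Arhgap26 had 148, 87 and 294 UMIs, found in 62.3%, 26.1% and 19.7% of cells, at 155, 65.1 and 52.1 CPM (ratio 2.37, 1.81 to 3.13). Its ratio was 1.42 after thinning and regrouping, below 1.5-fold, and 2.02 with another random draw. Its antisense gene Gm15336 had 13, 5 and 14 UMIs (ratio 3.63, from 1.21 to 13), and Gm15337 had 3, 0 and 1. The nearest gene of at least 50 UMIs before the stretch, Ndfip1, 121 kb away, was at 905 and 902 CPM (ratio 1.00, 0.918 to 1.10). The nearest after it, Nr3c1, the glucocorticoid receptor gene, 34.3 kb away, was at 63.7 and 55.4 CPM (ratio 1.15, 0.806 to 1.64). Further off, Yipf5 was lower (ratio 0.622, 0.428 to 0.892) and Kctd16, which encodes a subunit of GABA-B receptors and lies 881 kb away, was higher (ratio 1.82, 1.42 to 2.35). The genes of the stretch other than the 3 and Arhgap26, and the neighbours, were chosen after values had been seen.

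**Figure D3:**
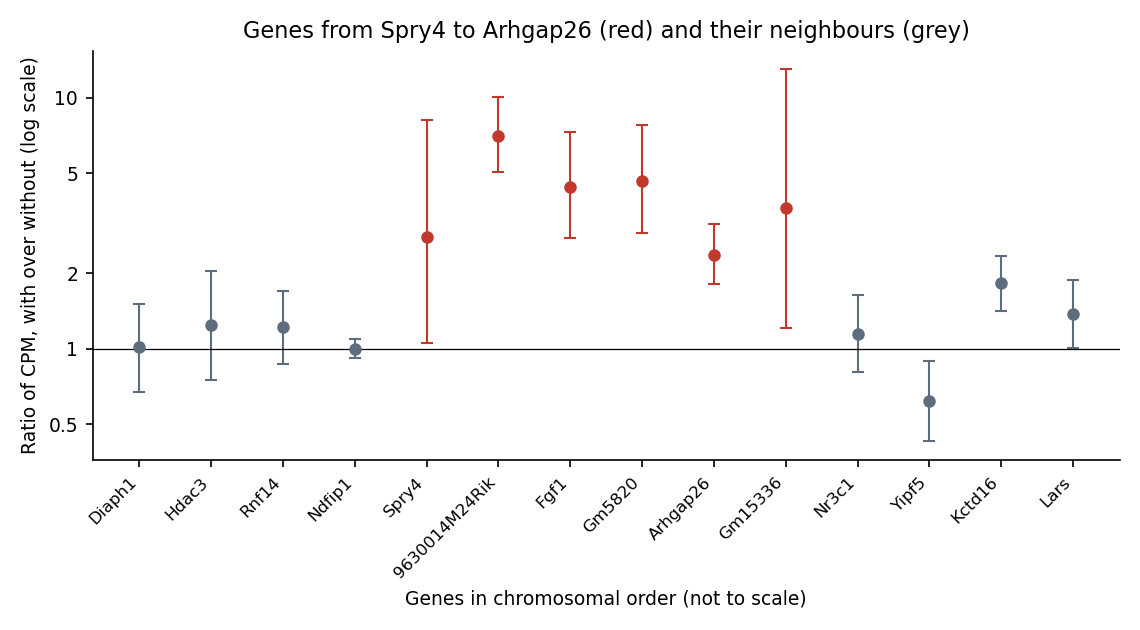
Ratio of CPM in knockout cells with over without Etv4 or Etv5 RNA (y axis, log scale) with 95% exact Poisson intervals, for genes in chromosomal order (x axis, not to scale), from Spry4 to Gm15336 (red) and the 4 nearest genes of at least 50 UMIs on either side (grey). The red genes lie between 2.37 and 7.08, and the nearest grey genes, Ndfip1 and Nr3c1, at 1.00 and 1.15.

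Genes of the pathway that CIC serves differed in some members and not in others. Of 20 listed ERK feedback genes and CIC targets, 6 had at least 50 UMIs, and the median ratio of the 6 was 1.64. Of these 6, 3 were past 1.5-fold higher and 0 lower (4.35% and 5.36% of all genes). Summed over the 20 genes the level was 582 CPM in cells with, 402 CPM in cells without and 349 CPM in control cells (ratio of with over without 1.45, 1.28 to 1.63). The 3 genes were Shc3, Vgf and Spred1. Vgf and Spry4 of the 20 also stood on the earlier list of genes higher in this knockout library. The count and the sum were therefore set in part by the choice of genes. Shc3 had 71 UMIs in 47 cells with (34.1%), 14 UMIs in 12 cells without (5.69%) and 5 UMIs in 5 control cells (0.546%), at 74.1, 10.5 and 0.886 CPM. Its ratio of with over without was 7.08 (3.95 to 13.6), and 3.52 after thinning and regrouping. Vgf was at 95.0, 42.6 and 17.5 CPM (ratio 2.23, 1.58 to 3.16). Spred1, an inhibitor of RAS and ERK signalling, was at 76.2, 39.7 and 33.7 CPM (ratio 1.92, 1.33 to 2.79). The feedback inhibitors Spry2 (51.2 and 62.1 CPM, ratio 0.824, 0.567 to 1.19) and Spred2 (137 and 137 CPM, ratio 0.999, 0.792 to 1.26) and the ERK phosphatase gene Dusp4 (35.5 and 26.2 CPM, ratio 1.36, 0.820 to 2.24) had intervals that held 1. The other 14 genes had fewer than 50 UMIs, and Etv1, the third PEA3 factor gene, had 7 UMIs in cells with and 3 in cells without.

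The kinase cascade itself was at like levels in both groups. The 21 listed genes of the RAS and ERK core, such as Sos1, Grb2 and the RAS and RAF genes, summed to 1892 CPM in cells with and 1896 CPM in cells without (ratio 0.998, 0.939 to 1.06). Of 18 with at least 50 UMIs, 0 were past 1.5-fold higher and 1 was lower (4.35% and 5.36% of all genes). This was Hras, at 16.7 and 26.2 CPM (ratio 0.638, 0.330 to 1.18). Of 14 listed FGF receptors, ligands and adaptors, 6 had at least 50 UMIs and 1 was past 1.5-fold higher (4.35% of all genes). This was the receptor gene Fgfr1. It had 53 UMIs in cells with, 23 in cells without and 41 in control cells, at 55.3, 17.2 and 7.26 CPM (ratio 3.22, 1.94 to 5.50). Thinned to 3000 UMIs and regrouped its ratio was 3.02, but thinned to 2000 UMIs it was 0.801. Fgfr2 was at 455, 467 and 486 CPM (ratio 0.975, 0.861 to 1.10).

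Of the 4 listed genes Cic, Atxn1, Atxn1l and Atxn2, 0 were past 1.5-fold higher and 1 was lower (4.35% and 5.36% of all genes). Cic had 42 UMIs in cells with and 76 in cells without, at 43.9 and 56.9 CPM (ratio 0.771, 0.516 to 1.14), and was at 56.5 CPM in control cells. The 3′ counts do not show whether the floxed exons were present in a transcript, so they do not tell which cells had lost CIC. By protein staining at an age later than P14, the paper found CIC lost from most but not all hippocampal CR cells of this line. Some of the knockout cells may therefore have kept CIC. The partner genes Atxn1 (376 and 299 CPM, ratio 1.26, 1.09 to 1.45) and Atxn1l (15.7 and 27.7 CPM, ratio 0.566, 0.289 to 1.06) went in opposite directions. The BCL2 family, which sets the threshold of apoptosis, summed to 263 and 283 CPM over 15 genes (ratio 0.928, 0.788 to 1.09). Of its 5 genes with at least 50 UMIs, 0 were past 1.5-fold higher and 1 was lower (4.35% and 5.36% of all genes). This was the anti-apoptotic Mcl1, at 33.4 and 50.1 CPM (ratio 0.667, 0.423 to 1.03). Bcl2 had 16 and 24 UMIs.

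By the naming rule, the 12 highest genes, ranked by whichever end of the ratio's interval lay closer to 1, were, beside 9630014M24Rik, Shc3, C1ql1, Gm5820 and Fgf1, the genes Gm29570, Rimbp2, Cstf1, Gabrb1, Nrcam, Gpr83 and Adamtsl3. Rimbp2, which encodes a scaffold of presynaptic active zones, was at 64.7 CPM in cells with, 11.2 CPM in cells without and 6.73 CPM in control cells (ratio of with over without 5.77, 3.24 to 10.9). Gabrb1, a subunit of GABA-A receptors, was at 110, 32.9 and 12.7 CPM (ratio 3.33, 2.32 to 4.85), and Nrcam at 65.8, 19.5 and 6.73 CPM (ratio 3.38, 2.11 to 5.57). After thinning and regrouping the ratio was 1.24 for Gabrb1, no longer past 1.5-fold, and 5.26 for Nrcam. Both were also higher in knockout cells without than in control cells, by 2.58 (1.73 to 3.81) and 2.89 (1.69 to 4.89). For Rimbp2 (1.67, 0.852 to 3.10), for Gpr83, a G protein-coupled receptor (66.8, 20.2 and 17.2 CPM), and for Adamtsl3, a protein of the extracellular matrix (54.3, 16.5 and 12.04 CPM), the interval of cells without over control held 1. In 2 genes at least 50% of the UMIs were in 1 cell, 36 of the 72 Gm29570 UMIs and 62 of the 100 Cstf1 UMIs. Without that cell Cstf1 had a ratio of 0.732, whereas Gm29570 still had a ratio of 49.2 (8.28 to 2000), with 71 UMIs in 8 cells with and 1 UMI in cells without when all cells were counted. Of the 12 genes, 6 stayed past 1.5-fold higher in each of 19 alternative treatments of the data, namely 9630014M24Rik, Shc3, C1ql1, Gm5820, Fgf1 and Nrcam.

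**Figure D4:**
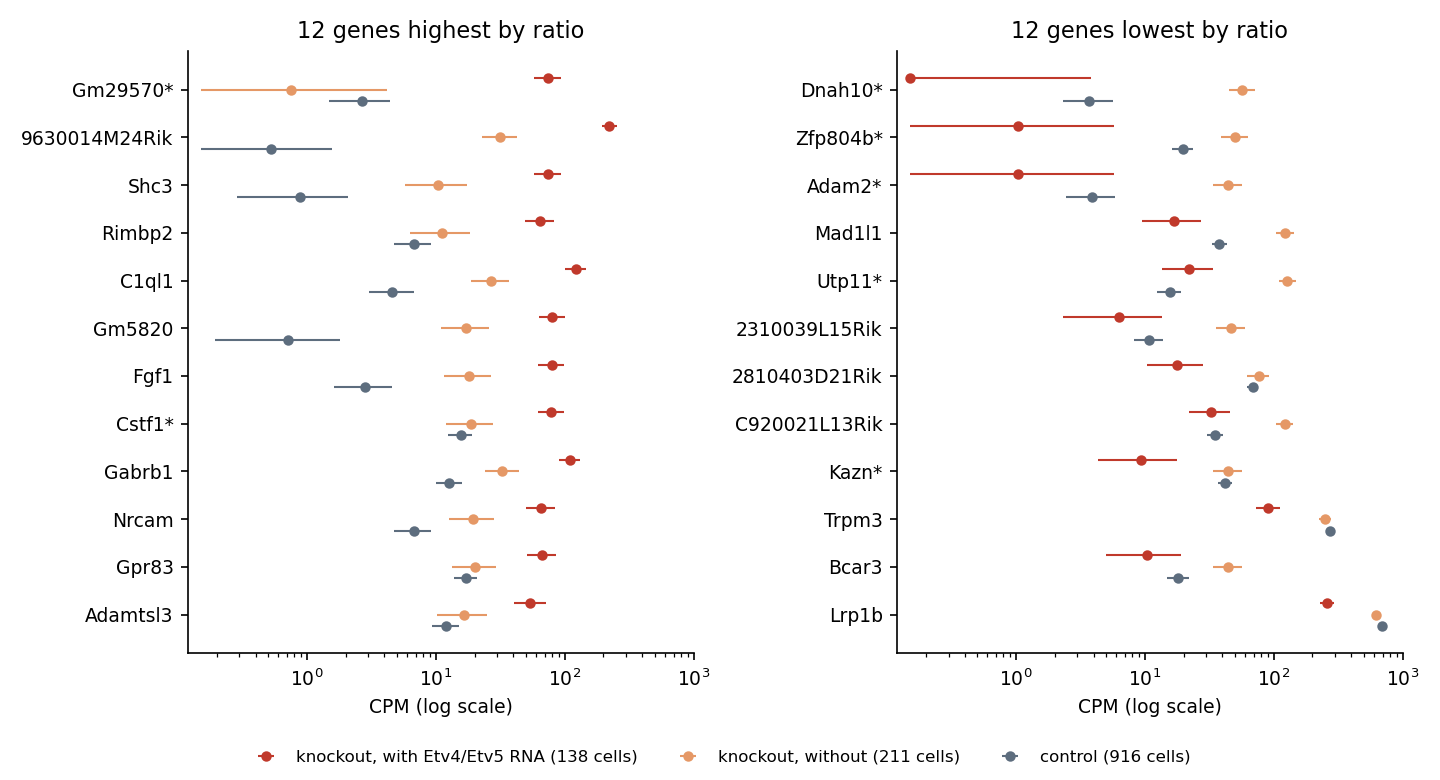
CPM (x axis, log scale) of the 12 highest (left) and 12 lowest (right) genes by the ratio of knockout cells with over without Etv4 or Etv5 RNA, in the 3 groups, with 95% exact Poisson intervals. An asterisk marks genes with 50% or more of their knockout UMIs in 1 cell, and Dnah10, at 0 UMIs in cells with, is drawn at the left edge. 9630014M24Rik is at 222, 31.4 and 0.531 CPM, and Lrp1b at 261, 622 and 695 CPM.

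Of the 12 lowest genes, Lrp1b and Trpm3 were spread over many cells, and the other 10 were concentrated in few. In these 10, at least 20% of the UMIs were in 1 cell, all of them cells without Etv4 or Etv5 RNA: Dnah10, Zfp804b, Adam2, Mad1l1, Utp11, 2310039L15Rik, 2810403D21Rik, C920021L13Rik, Kazn and Bcar3. In 5 of the 12 it was at least 50%: Dnah10, for instance, had 73 of its 76 UMIs in 1 cell, and Kazn 57 of 68. Without that cell Kazn was at a ratio of 6.26 (1.295 to 59.5), Zfp804b at 0.173 (0.00391 to 1.29), and Dnah10 had 0 and 3 UMIs. The other 7 stayed past 1.5-fold lower without their top cell, with upper bounds below 1. They were Adam2 (0.0993), Mad1l1 (0.194), 2310039L15Rik (0.219), 2810403D21Rik (0.309), Bcar3 (0.386), C920021L13Rik (0.520) and Utp11 (0.582). These bounds do not cover the clustering of UMIs in few cells. The shares of cells with and without differed less for Mad1l1 (10.1% and 16.1%), Bcar3 (6.52% and 8.53%), Utp11 (8.70% and 9.48%) and 2810403D21Rik (9.42% and 9.48%). For C920021L13Rik the share was higher in cells with (14.5% and 9.48%). Adam2 was found in 1 cell with and 3 without, and 2310039L15Rik in 1 and 7. Lrp1b had 250 UMIs in cells with, 832 in cells without and 3924 in control cells, at 261, 622 and 695 CPM (ratio of with over without 0.419, 0.363 to 0.484). It was found in 51.4% (42.8 to 60.0), 72.5% (66.0 to 78.4) and 73.5% (70.5 to 76.3) of cells, and no cell held more than 35 of its 1082 knockout UMIs. Trpm3, a cation channel gene, had 87, 336 and 1545 UMIs, at 90.8, 251 and 274 CPM (ratio 0.361, 0.282 to 0.459), in 21.7%, 36.5% and 41.7% of cells. For both genes, knockout cells without were close to control cells, at ratios of 0.896 (0.830 to 0.966) and 0.919 (0.814 to 1.03). After thinning and regrouping the ratios of with over without were 0.484 and 0.374, within Xist cells 0.484 and 0.413, and within Y-linked cells 0.307 and 0.366. The ratios depended on depth: for Lrp1b and Trpm3 they were 0.813 and 0.679 after thinning to 2000 UMIs, no longer past 1.5-fold, and 0.237 and 0.386 with another random draw at 3000 UMIs.

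**Figure D5:**
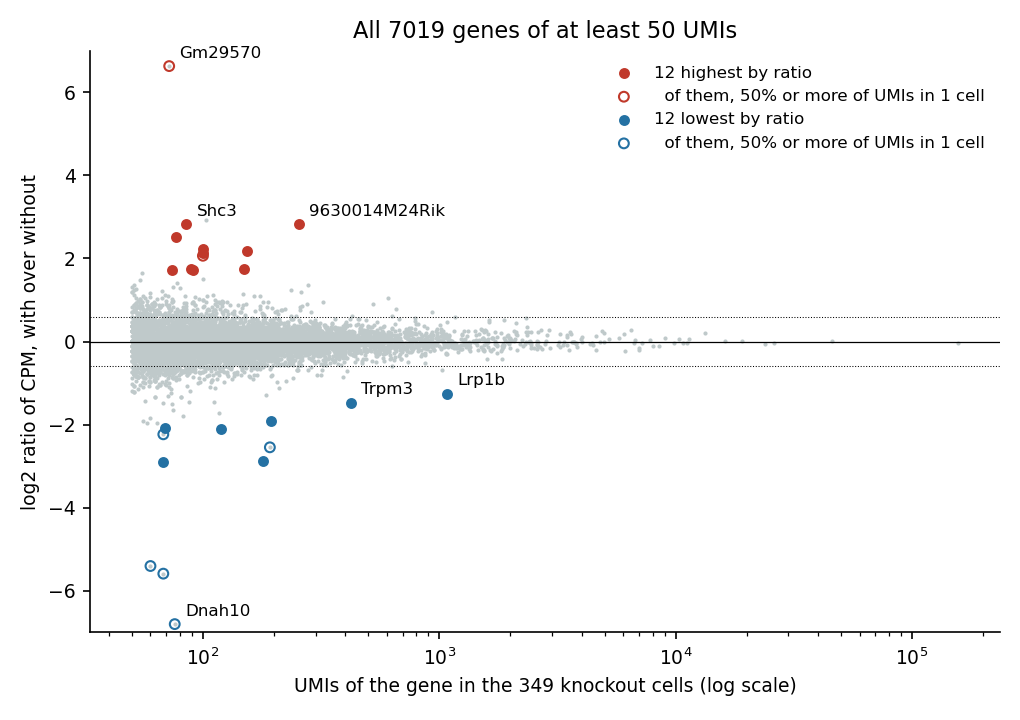
Log2 ratio of CPM in knockout cells with over without Etv4 or Etv5 RNA (y axis) against the UMIs of each gene in the 349 knockout cells (x axis, log scale) for 7019 genes, with the 12 highest (red) and 12 lowest (blue) genes by the naming rule and dotted lines at 1.5-fold. Open circles are genes with 50% or more of their UMIs in 1 cell, and Dnah10, at a ratio of 0, is drawn at the lower edge. 9630014M24Rik had 255 UMIs and a ratio of 7.08, and Lrp1b had 1082 UMIs and a ratio of 0.419, while 1.07% and 0.806% of genes with at least 200 UMIs lay beyond the upper and the lower line.

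Among 20 immediate early genes, which neurons induce within minutes of activity, growth factors or dissociation, Egr1 had the lowest ratio. Egr1, a transcription factor gene that ERK signalling induces, had 10 UMIs in 7 cells with (5.07%, 2.06 to 10.2), 50 UMIs in 30 cells without (14.2%, 9.80 to 19.7) and 444 UMIs in 229 control cells (25.0%, 22.2 to 27.9). It was at 10.4, 37.4 and 78.6 CPM (ratio of with over without 0.279, 0.126 to 0.557). The gene stood on an earlier list of genes lower in this knockout library, so its direction is not independent. Homer1, a postsynaptic scaffold gene with an activity-induced short form, was at 29.2, 63.6 and 63.4 CPM (ratio 0.460, 0.289 to 0.712). Of 16 genes of the list with at least 50 UMIs, 0 were past 1.5-fold higher and 3 lower (Egr1, Homer1 and Ier2), against 4.35% and 5.36% of all genes. The median ratio of the 16 was 0.888, against 0.991 over all genes, and 16 of 16 were below 1. The median of all genes was itself below 1, and several of the 16 were close to it. Egr1, Homer1, Junb and Npas4 stayed below 1 in each of 19 alternative treatments. Nr4a1 (ratio 0.986) did so in 12, Jun (0.944) in 11 and Nr4a2 (0.909) in 9, and the rest lay between. Summed levels were 2041, 2363 and 2366 CPM (ratio 0.864, 0.816 to 0.915), and the ratio was below 1 in 17 of 18 alternative treatments of the data but 1.04 after thinning to 2000 UMIs. Btg2 and Fos, for instance, were at 348 and 360 CPM (ratio 0.966, 0.838 to 1.11) and at 312 and 349 CPM (ratio 0.896, 0.772 to 1.04). Of 9 heat shock genes, 8 had at least 50 UMIs, 0 were past 1.5-fold higher and 1 lower (4.35% and 5.36% of all genes). The lower gene was Hspa1b, at 21.9 and 34.4 CPM, with 10 of its 67 UMIs in 1 cell. Summed over the 9 genes, the levels were 2926 and 3035 CPM, against 2451 CPM in control cells.

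Genes ranked by the share of thinned cells with a UMI, a ranking chosen after values had been seen, added abundant genes with smaller ratios. Here the groups were kept as formed from all UMIs. After 9630014M24Rik (43.1% of thinned cells with and 6.22% of thinned cells without), the next gaps were those of Shisal2b (65.7% and 44.5%), Ass1, an enzyme of arginine synthesis (46.7% and 26.8%), and Nkain3 (92.0% and 73.7%). Nkain3, which encodes a protein that interacts with the sodium pump, was at 1260 CPM in cells with, 845 CPM in cells without and 833 CPM in control cells (ratio of with over without 1.49, 1.37 to 1.62). Clvs1, which encodes a clathrin-associated lipid-binding protein, was at 314, 168 and 153 CPM (ratio 1.87, 1.57 to 2.23), and Nfasc, which encodes the adhesion molecule neurofascin, at 991, 694 and 687 CPM (ratio 1.43, 1.30 to 1.56). For Nkain3, Clvs1 and Nfasc the knockout cells without were at 1.01 (0.951 to 1.08), 1.10 (0.946 to 1.27) and 1.01 (0.939 to 1.09) times the control level. Shisal2b differed, at 424, 286 and 151 CPM, with cells without at 1.89 (1.67 to 2.14) times the control. At the other end were Lrp1b (33.6% and 59.3% of thinned cells), Rgma, a repulsive guidance molecule gene (22.6% and 42.6%), Gbf1 (32.1% and 48.8%), Tmem176b (36.5% and 53.1%) and Rims1, a gene of the presynaptic active zone (54.7% and 70.8%).

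The subtype genes of hippocampal CR cells with at least 50 UMIs differed by less than 1.5-fold. The limit on oxidative phosphorylation genes had left out 31 knockout cells, and without it the groups were 154 and 226 cells. In the paper the cluster high in Pcp4 was enriched for mitochondrial terms. How much of that cluster the limit left out was not tested. Cck was at 107 CPM in cells with and 128 CPM in cells without (ratio 0.833, 0.645 to 1.07), Gabrg3 at 329 and 301 CPM (ratio 1.09, 0.939 to 1.27) and Grik1 at 56.4 and 56.1 CPM (ratio 1.00, 0.695 to 1.45). Pcp4 was at 196 and 157 CPM (ratio 1.25, 1.02 to 1.53), and its interval did not hold 1. Of the 5 genes of the list with at least 50 UMIs, 0 were past 1.5-fold in either direction (4.35% of all genes were higher and 5.36% lower). Calb2, which encodes calretinin, was at 102 and 71.8 CPM (ratio 1.43, 1.06 to 1.91), with 56.9 CPM in control cells. RNAs that stay in the nucleus, such as Malat1 and Meg3 (6 genes), made up 7.38% of UMIs in cells with, 7.54% in cells without and 7.47% in control cells.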

How the data were processed

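UMI counts per gene and barcode were used as the authors deposited them, with all barcodes kept. The sources differ on the upstream steps: the study's methods name Cell Ranger and the mm10 mouse reference, while the submitters' processing notes name Cell Ranger 8.0.1 and mm39. Whether intronic reads and strand were used is not given in the sources used here. The knockout library held 6777071 UMIs and the control library 16336796 UMIs, and they shared 0 cell barcodes. Of 406 knockout barcodes with at least 2000 UMIs, 15 were left out for mitochondrial RNA, 11 for Reln and 31 for oxidative phosphorylation genes (nuclear subunit genes, as a share of UMIs outside mitochondrial and ribosomal protein genes). Of 1011 control barcodes, 8, 8 and 79 were left out. No doublet caller was run, and the 5% deepest cells were left out as an alternative.

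UMIs were summed per group and given as CPM, with exact 95% intervals for counts, for ratios of 2 Poisson counts and for binomial shares (Clopper-Pearson). With 1 library per genotype no test was made. The naming rule took, among genes of at least 50 UMIs, the 12 highest and 12 lowest by the end of the ratio's interval closer to 1, given the same direction after thinning, and let listed genes of at least 50 UMIs be named, of which some are not reported here. Members, lists and groups were chosen with earlier results of these data known. The subgroups by UMI number, by factor and by RNA of the 4 genes, the ranking by share and the chromosome 18 neighbours were chosen after values had been seen. Positions are from GENCODE for GRCm38, matched by Ensembl ID for 223 of 224 genes looked up. The computation used Python 3.11.15, numpy 2.4.6, scipy 1.17.1, pandas 2.3.3 and matplotlib 3.10.9, and was tested on simulated data.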

Additional observations from a re-analysis of the deposited data

Results flagged for a closer look

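Etv4 and Etv5 RNA was also present outside the chosen cells of the knockout library, in droplets that entered no comparison of the groups. In 75813 knockout droplets of 20 to 100 UMIs the 2 genes had 302 UMIs, or 99.4 CPM, against 9 UMIs, or 4.13 CPM, in 29040 control droplets. The chosen cells were at 144 CPM in the knockout and 17.4 CPM in the control. For comparison, Reln was at 880.3 CPM in the knockout droplets and 8303 CPM in the knockout cells. The part of this RNA in the grouping of cells was not tested.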

How the results depend on the processing

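No paired analysis was possible because each genotype was 1 library of pooled mice, and no replicate could be left out for the same reason. Of 19 treatments of the data that gave values for single genes, the ratios of 9630014M24Rik, Shc3, C1ql1, Gm5820, Fgf1 and Nrcam stayed past 1.5-fold in each. Limits at 4000 UMIs, 4000 to 10000 UMIs, 5% mitochondrial UMIs or no limit on oxidative phosphorylation genes, leaving out the 5% deepest cells or cells with 3 or more astrocyte UMIs, CPM of all UMIs and means of per-cell CPM moved no group size, share, list ratio of the genes higher in the knockout or number of genes past 1.5-fold by more than its interval or, for counts, 1.5 times. Single genes did move: Trpm3 was at 0.279 in cells of 4000 to 10000 UMIs, outside its interval. A minimum of 1 Reln UMI left both knockout groups as they were. Depth limited the grouping, since thinning by construction moves cells from the group with Etv4 or Etv5 RNA to the group without.

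Thinned to 3000 UMIs, the share of cells with Etv4 or Etv5 RNA was 26.9% in the knockout and 4.32% in the control, the ratio for the list of 7 genes higher in the knockout was 2.50 with over without and 4.03 without over control, 190 of 3869 genes were past 1.5-fold higher and Etv4 by presence of Etv5 had a ratio of 2.32. With another random draw these values were 27.2%, 4.10%, 2.55, 4.08, 188 of 3902 genes and 2.70. Thinned to 2000 UMIs, 63 cells were with, the shares were 18.1% and 3.28%, the list ratios 2.06 and 5.21, 172 of 2636 genes were higher, and the ratios of Etv5 by Etv4 and Etv4 by Etv5 were 1.56 and 2.41. With the groups kept from all UMIs and other genes thinned, an alternative added after seeing the data, 171 genes were past 1.5-fold higher and 200 lower.

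Grouping by Etv4 alone gave 90 cells with and a ratio of 3.36 for the list without over control. Grouping by Etv5 alone gave list ratios of 2.25 with over without and 4.13 without over control, and at least 2 UMIs against 0 gave 79 cells with. In Xist cells 67 were with and 94 without, the control share was 5.71%, the list ratios were 3.04 and 3.28 and Etv5 by Etv4 was 1.69. In Y-linked cells 65 were with and 106 without, and Etv5 by Etv4 was 3.52. Genes past 1.5-fold higher and lower were 103 and 103 of 4371 at a minimum of 100 UMIs, 24 and 18 of 2233 at 200 UMIs, and 3289 and 4026 of 18208 at 1 UMI.

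Of 38 named genes whose ratio was past 1.5-fold, 10 changed side of 1 under some alternative, and of 103 named genes within 1.5-fold 82 did, such as Reln, Fos, Btg2 and Fgfr2. Those past 1.5-fold were Ier2 (1.26) and Hras (1.47) thinned to 3000 UMIs and Atxn1l (1.105) with another draw. Thinned to 2000 UMIs they were Gm29570 (0), Cstf1 (0.790), Fgfr1 (0.801), Hspa1b (1.05) and the sum of 5 genes lower in the knockout (1.06, against 0.494 unthinned). Hspa1b was at 1.16 in cells of 4000 to 10000 UMIs and 1.25 without cells with astrocyte UMIs. Cstf1 was at 0.823 at 5% mitochondrial UMIs, 0.582 in Xist cells, 0.824 in Y-linked cells and 0.732 without its top cell. Utp11 was at 1.38 in Xist cells, C920021L13Rik at 2.31 and Kazn at 1.65 in Y-linked cells, and Kazn at 6.26 without its top cell, an alternative added after seeing the data. The cause of these moves was not tested. Gm29570 gave no ratio in Y-linked cells and with the groups kept, where cells without had 0 UMIs.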
